A study of Mus musculus with 2 samples.

Results

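Interferon-stimulated genes are described here in NIH3T3, a mouse fibroblast line established from embryos, as 36 genes chosen by name: all probes whose gene name in the scanner files is one of 36 known interferon-induced genes. They make up 51 of the 41084 probes with usable spots and 36 of 21447 gene names. The study asked how MARVELD1, which belongs to the MARVEL domain proteins, influences the expression profile of these cells. The empty vector group was NIH3T3 transfected with the pcDNA3.1 vector, and the MARVELD1 group was NIH3T3 transfected with pcDNA3.1-MARVELD1; per the labels, stable lines were selected with G418, so both groups carry the plasmid backbone and were grown under the same drug. Each group is 1 single-colour Agilent array, and the labels do not say whether a line is 1 clone or a pool, nor the species of the insert.

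Cells that sense viral nucleic acid secrete type I interferons, which bind the receptor formed by Ifnar1 and Ifnar2. The receptor's kinases Jak1 and Tyk2 then phosphorylate STAT proteins, and Stat2 enters with Irf9 into the complex ISGF3, which binds an interferon-stimulated response element (ISRE) in the promoters of target genes. Interferon gamma acts through its own receptor and a second promoter element, the gamma-activated site (GAS). The products of the target genes block viral entry, translation, RNA stability or release, and many are expressed at a low level in fibroblasts that have seen no added interferon.

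With 1 array per group, no test between groups could be made and no p-value is given; a difference of 2-fold is a limit of size only. Slide and scan were shared by both arrays. Of the spots, 68.6% (empty vector) and 68.9% (MARVELD1) were well above background. Marveld1 itself read 8724.7 and 6292.8 at its brighter probe, a log2 difference of -0.34, so each direction below rests on the label of the second array. Of 10 fibroblast markers all 10 were detected, among them Col1a1 at 141014 and 102547 and Vim at 107830 and 114179. Of 12 macrophage and dendritic cell markers 10 were detected and 0 passed 2-fold, where 3.48% of all genes were at least 2-fold lower and 5.52% higher. The summed intensity of the 12 was 7038.8 and 5955.6. Siglech and Tyrobp were not well above background on either array, and Ptprc read 44.2 and 55.1. Others were brighter: Cd14 read 4194.7 and 2999.1, Itgax 912.2 and 1256.1, and Csf1r 670.5 and 502.1. Spi1 read 219.7 and 101.1, a log2 difference of -0.99.

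The promoters of the members at both ends of the measured range are shown first, because the ISRE is the sequence through which interferon acts on such genes. Each line gives the 170 bases before a RefSeq start site on build GRCm38.p6, 5′ to 3′ in the direction of the gene. Gbp3 has 2 promoter windows in RefSeq, and the stretch shown was chosen because its window holds a match, while the other holds none. Capitals mark every match to the ISRE core, which is GAAA, NN, GAAA in a row (N is any base), searched on both strands so that it also shows as TTTC, NN, TTTC, with overlapping matches kept. The first 5 genes are those that read at least 2-fold lower on the array labelled MARVELD1. Bst2 and Ifi47 are the members with the largest higher readings among those measured on both arrays.
Ifit1 (chr19:34640719-34640888, plus strand): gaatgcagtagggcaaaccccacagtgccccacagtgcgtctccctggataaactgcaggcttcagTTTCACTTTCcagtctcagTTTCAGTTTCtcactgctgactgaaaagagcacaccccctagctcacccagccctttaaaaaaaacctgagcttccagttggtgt
Isg15 (chr4:156200819-156200988, minus strand): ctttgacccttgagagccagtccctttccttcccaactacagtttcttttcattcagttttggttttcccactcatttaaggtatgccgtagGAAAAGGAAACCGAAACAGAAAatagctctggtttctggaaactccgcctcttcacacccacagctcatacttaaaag
Gbp3 (chr3:142559874-142560043, plus strand): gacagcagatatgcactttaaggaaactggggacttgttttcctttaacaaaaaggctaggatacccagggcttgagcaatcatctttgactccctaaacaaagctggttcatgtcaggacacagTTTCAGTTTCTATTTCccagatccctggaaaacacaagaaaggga
Ifit3 (chr19:34583359-34583528, plus strand): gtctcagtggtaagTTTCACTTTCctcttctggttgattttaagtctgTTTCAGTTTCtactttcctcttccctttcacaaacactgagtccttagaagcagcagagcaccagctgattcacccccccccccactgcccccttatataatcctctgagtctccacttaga
Gbp2 (chr3:142620493-142620662, plus strand): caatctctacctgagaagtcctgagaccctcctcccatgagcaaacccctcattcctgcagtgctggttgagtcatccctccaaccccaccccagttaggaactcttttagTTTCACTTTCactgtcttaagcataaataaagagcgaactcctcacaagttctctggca
Bst2 (chr8:71537473-71537642, minus strand): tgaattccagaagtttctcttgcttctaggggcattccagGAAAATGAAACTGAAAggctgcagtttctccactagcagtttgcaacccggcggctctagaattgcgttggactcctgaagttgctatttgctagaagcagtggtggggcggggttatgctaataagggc
Ifi47 (chr11:49076417-49076586, plus strand): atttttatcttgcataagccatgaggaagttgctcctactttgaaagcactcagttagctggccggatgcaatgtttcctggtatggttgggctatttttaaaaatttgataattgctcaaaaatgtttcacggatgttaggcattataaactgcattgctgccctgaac

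In these stretches Isg15 holds 3 overlapping matches in 1 run, Ifit1, Ifit3, Gbp3 and Bst2 hold 2 each, and Gbp2 holds 1. Counted from the start site, the matches of Ifit1 begin at -104 and -85, those of Ifit3 at -156 and -122, and those of Isg15 at -78, -72 and -66. The window of Ifi47 holds 0, which says only that these letters are not in that window.

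More of the detected members read lower than higher on the array labelled MARVELD1, with Ifit1, Isg15, Gbp3, Ifit3 and Gbp2 lowest and Ifi47 highest. An intensity here is the scanner program's processed brightness of a spot, in arbitrary units; differences are log2(intensity), scaled to each array's 75th percentile, of the array labelled MARVELD1 minus the empty vector array. Every member probe is a single spot. Of the 36 genes, 32 were detected, meaning that the scanner program set some probe well above background on 1 array or both. The gene was then given by its brightest such probe, which was measured on both arrays in 28 genes. Irf7, Oasl2, Iigp1 and Ifi44 were not detected. Of the 32, 5 were at least 2-fold lower (15.6%) and 1 was at least 2-fold higher (3.12%), where among all 17432 genes detected in the same way 3.48% were at least 2-fold lower and 5.52% higher. After loess on mean intensity these shares of all genes were 4.61% and 3.75%, and the counts of members 7 and 1. At 1.5-fold 11 members were lower and 3 higher (8.95% and 19.5% of all genes), and at 3-fold 4 and 1 (1.29% and 1.23%). By any amount 19 of the 32 read lower, or 59.4%, where 34.6% of all genes did. The median of the members was -0.26, that of all genes 0.19, and the members' median thus lay at -0.45 relative to all genes.

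Technical error was read in 2 ways. The scanner program gives each spot an error, built on a fixed multiplicative term of 10%, which for member probes above an intensity of 1000 amounts to 0.20 on the log2 scale of a difference and grows towards background. Probes printed repeatedly gave the SD of a difference between single spots as 0.66 for mean intensities under 100, 0.37 from 100 to 1000 and 0.16 above 1000. Of the members, 8 read lower and 4 higher by more than 2 of these SDs, and 20 lay within; of all genes 9.28% read lower and 22.5% higher by that measure. Neither error covers the spread between cultures, which was not measured.

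**Figure D1:**
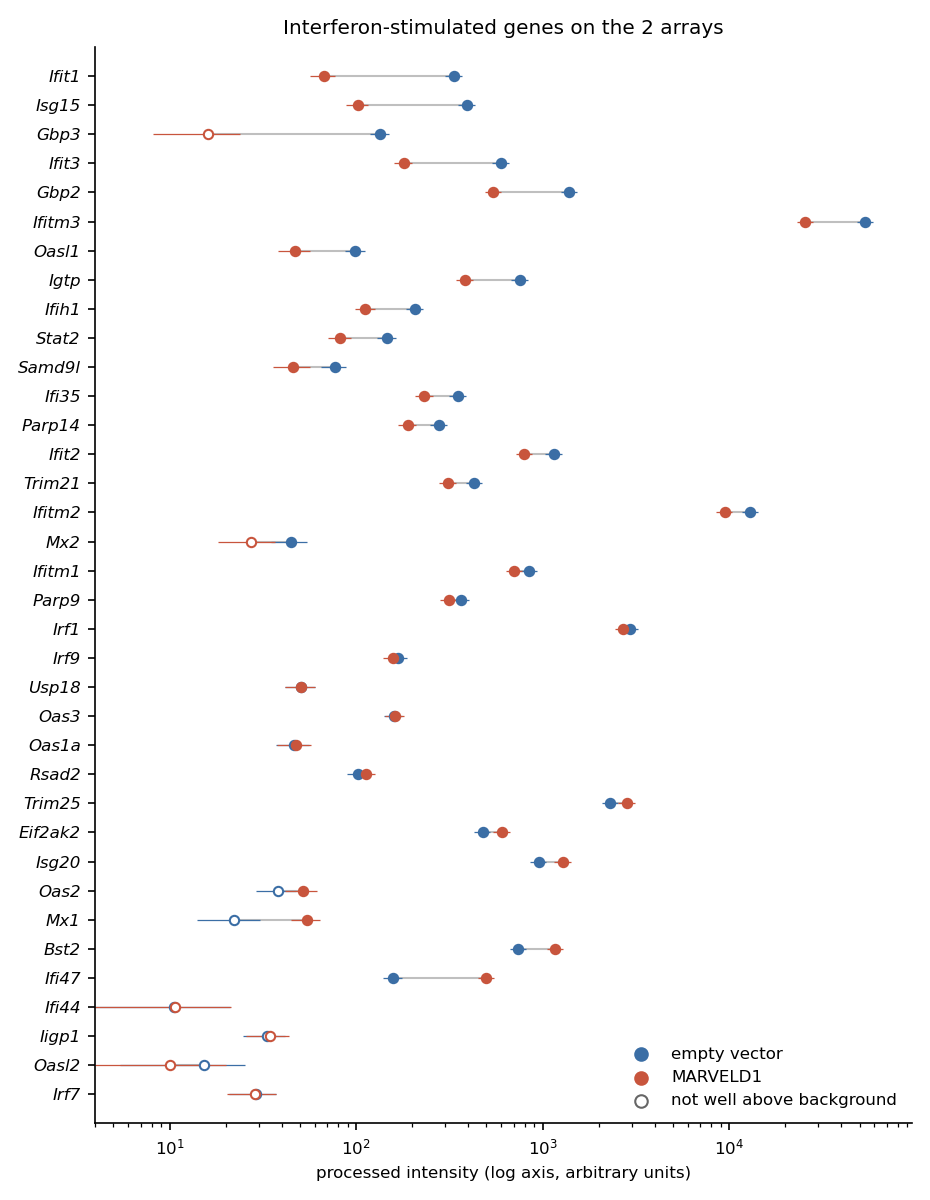
Processed intensity (log axis, arbitrary units) of the representing probe of each of the 36 genes on the empty vector array (blue) and the array labelled MARVELD1 (red), ordered by log2 difference with the 4 undetected genes at the bottom. Bars are the scanner program's error of the spot and are cut off at the left edge where they reach it; open circles are not well above background, and Ifit1, at the top, reads 333.2 against 66.9 while Ifi47 reads 157.4 against 499.7.

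The transcription factors that carry the interferon signal differed little, apart from Stat2. Stat2, the subunit of ISGF3 that brings its activation domain, read 146.6 ± 16.6 (the scanner program's error of 1 spot, as in all such values) without and 82.4 ± 11.5 with MARVELD1 on the label, which is -0.70 on the log2 scale or 1.63-fold lower. Irf9, the DNA-binding subunit of the same complex, read 168.4 and 157.8, a difference of 0.03 with an error of 0.23; its other probe was not well above background. Irf1, an interferon gamma target that activates many of the genes below, read 2945.2 and 2712.3 at its brighter probe, a difference of 0.01, and 71.5 and 46.7 at its dimmer one, a difference of -0.49. Irf7, the factor that amplifies type I interferon production, read 29.0 and 28.8 and was not detected. Of the 3 detected factors 0 passed 2-fold in either direction, where 3.48% of all genes were at least 2-fold lower and 5.52% higher. At these shares a count of 0 among so few genes says little. The sign for Irf1 and Irf9 changed with the scaling, as it did for Usp18 and Oas1a.

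Among the IFIT proteins, Ifit1 binds viral RNA lacking the host's cap methylation and blocks its translation. The 3 IFIT genes of the set lie in a cluster on chromosome 19, where the probes span 75.5 kb (mm9, 34648307 to 34723855). Ifit1 read 333.2 ± 34.2 and 66.9 ± 10.3, a log2 difference of -2.19 with an error of 0.27, or 4.56-fold lower, the lowest of the 28 members measured on both arrays; its probe lies at 34723796 to 34723855. Ifit3 read 597.5 ± 60.3 and 179.5 ± 19.8, a difference of -1.61, or 3.05-fold lower (probe at 34663105 to 34663164). Both readings were well above background on both arrays, and both differences are larger than 2 of the spot SDs for that brightness. Ifit2, in the same cluster, read 1148.5 ± 115.2 and 798.6 ± 80.4, a difference of only -0.40, or 1.32-fold lower. Its second probe, 5′ of the first, read 62.7 and, not well above background, 16.2, which gives a bound of -0.68 on the log2 scale, or -0.59 against the dimmest single spot well above background. The 3 genes of the cluster thus shared a direction and differed in size.

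The OAS family makes the 2-5A messenger that activates RNase L. Its members showed no common direction. Oas3 read 159.1 and 161.9 at its brighter probe, a log2 difference of 0.15, and 75.2 and 47.6 at the probe 5′ of it, a difference of -0.53; the mean of both probes was -0.19. Oas1a read 46.6 and 47.5, not far above the dimmest single spots well above background on the arrays, 36.6 and 38.1. Oas2 was well above background only on the array labelled MARVELD1, at 51.6 against 38.3, at least 1.47-fold higher. The 3 genes lie together on chromosome 5, with probes from 121180434 to 121348407. Of the OAS-like genes, Oasl1, which restrains Irf7 translation, read 99.2 ± 12.5 and 47.3 ± 8.995, a difference of -0.94 with an error of 0.33, or 1.92-fold lower, and Oasl2 was not well above background, at 15.4 and 10.1. Among the 7 detected IFIT and OAS genes 2 were at least 2-fold lower and 0 higher. Oas1a, like its neighbours, has close paralogs, and whether the probes read them too was not tested.

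Among genes for RNA sensing and decay the sensor read lower and both effectors higher, none past 2-fold (3.48% of all genes were lower and 5.52% higher by that limit). Ifih1, the cytosolic sensor of long double-stranded RNA also called MDA5, read 207.4 ± 22.2 and 112.1 ± 13.9, a log2 difference of -0.76 and thus 1.69-fold lower; a second probe was not well above background. Eif2ak2, the kinase PKR that halts translation on double-stranded RNA, read 476.3 and 603.3, a difference of 0.47. Isg20, an exonuclease that degrades single-stranded RNA, read 952.6 and 1282.8, a difference of 0.56, and its other probe read 469.7 and 470.8, a difference of 0.13. All 3 genes lay under 2-fold in every setting tried.

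The ISG15 system attaches the small protein Isg15 to newly made proteins. Isg15 read 392.5 ± 40.6 and 101.9 ± 14.2, a log2 difference of -1.82 with an error of 0.25, or 3.53-fold lower (chromosome 4, 155573922 to 155573981). Usp18, the protease that removes Isg15 and dampens the receptor, read 50.9 and 50.8, near the limit of detection on both arrays. The ubiquitin ligases read in opposite directions: Trim25, which acts on the sensor RIG-I, read 2298.6 and 2829.6, a difference of 0.43, with 0.51 from its other probe, whereas Trim21, an antibody receptor of the cytosol, read 429.7 and 310.9, a difference of -0.34. Parp14 and Parp9, ADP-ribosyltransferases whose probes span 139.4 kb on chromosome 16, read 279.7 and 188.9 and 364.4 and 314.3, differences of -0.44 and -0.09. Of these 6 genes only Isg15 was past 2-fold, where 3.48% of all genes were at least 2-fold lower and 5.52% higher.

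**Figure D2:**
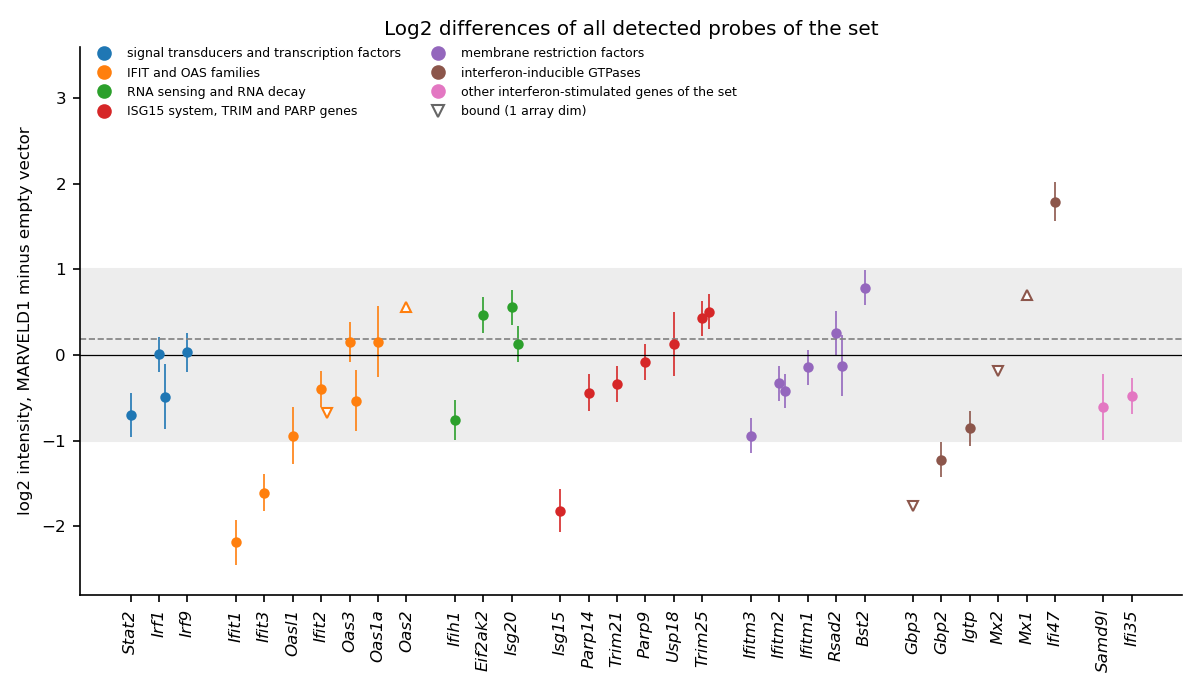
Log2 intensity on the array labelled MARVELD1 minus that on the empty vector array for each detected probe of the set, grouped by role, with the further probes of a gene set to the right of its brightest. Bars are the scanner program's error, open triangles are bounds, the grey band is within 2-fold and the dashed line is the median of all genes, 0.19; Ifit1, Isg15, Gbp3, Ifit3 and Gbp2 lie below the band and Ifi47 above it.

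Of the factors that act at membranes, Ifitm3 and Bst2 differed most, in opposite directions. Ifitm3, which blocks the fusion of virus and endosome, read 53755 ± 5376 and 25555 ± 2556, a log2 difference of -0.95 and thus 1.93-fold lower, and it was past 2-fold lower under 5 of 12 settings. Ifitm2 read 12973 and 9450.4, a difference of -0.33; a second probe of that name, whose mapped position of 54087914 to 54087973 lies elsewhere on chromosome 7, gave -0.42. Ifitm1 read 848.9 and 704.3, a difference of -0.14 with an error of 0.21. The 3 genes are neighbours on chromosome 7, where the other 3 probes span 54.7 kb, and they have similar coding sequences, so shared signal is possible and was not tested. Bst2, or tetherin, which holds budding virions at the cell surface, read 740.0 ± 74.5 and 1169.5 ± 117.3, a difference of 0.79 or 1.73-fold higher. Rsad2, the antiviral enzyme viperin, read 102.9 and 112.9 at its brightest probe and 57.4 and 48.3 at the next, differences of 0.26 and -0.12. None of the 5 genes passed 2-fold with the main scaling, 0 in either direction (3.48% of all genes were lower and 5.52% higher).

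The interferon-inducible GTPases held the widest range. Gbp2, a guanylate-binding protein that attacks the vacuoles of intracellular pathogens, read 1389.5 ± 139.2 and 544.8 ± 55.0, a log2 difference of -1.22 and thus 2.34-fold lower (chromosome 3, 142300719 to 142300778). Gbp3, its neighbour at 142236072 to 142236131, read 133.9 ± 15.4 with the empty vector and only 16.0, not well above background, with MARVELD1 on the label; against the lowest probe mean called well above background (35.95) it was at least 3.41-fold lower, and against the dimmest such single spot (38.1) at least 3.22-fold lower. Igtp, an immunity-related GTPase also called Irgm3, read 756.2 and 381.9, a difference of -0.86 or 1.81-fold lower. Ifi47, another immunity-related GTPase, read higher: 157.4 ± 18.3 and 499.7 ± 50.9, a difference of 1.79 with an error of 0.22, or 3.47-fold higher (chromosome 11, 48910173 to 48910232). It was the only member at least 2-fold higher, by its single probe, and stayed past 2-fold in all 12 settings with a fixed 2-fold limit. Mx1 and Mx2, dynamin-like GTPases that trap viral nucleocapsids, were dim: Mx1 read 22.3 and 54.4, at least 1.63-fold higher, and Mx2 read 44.8 and 27.5, at least 1.14-fold lower, or 1.08-fold against the dimmest single spot. Iigp1 was not well above background, at 33.2 and 34.6.

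The last members were lower by less than 2-fold or undetected. Ifi35, which pairs with the Stat-binding protein Nmi, read 353.2 and 232.2, a log2 difference of -0.48, and Samd9l, a restriction factor for poxviruses, read 76.7 and 46.1, a difference of -0.61 with an error of 0.39. Both probes of Ifi44 read between 8.15 and 10.7, not well above background.

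**Figure D3:**
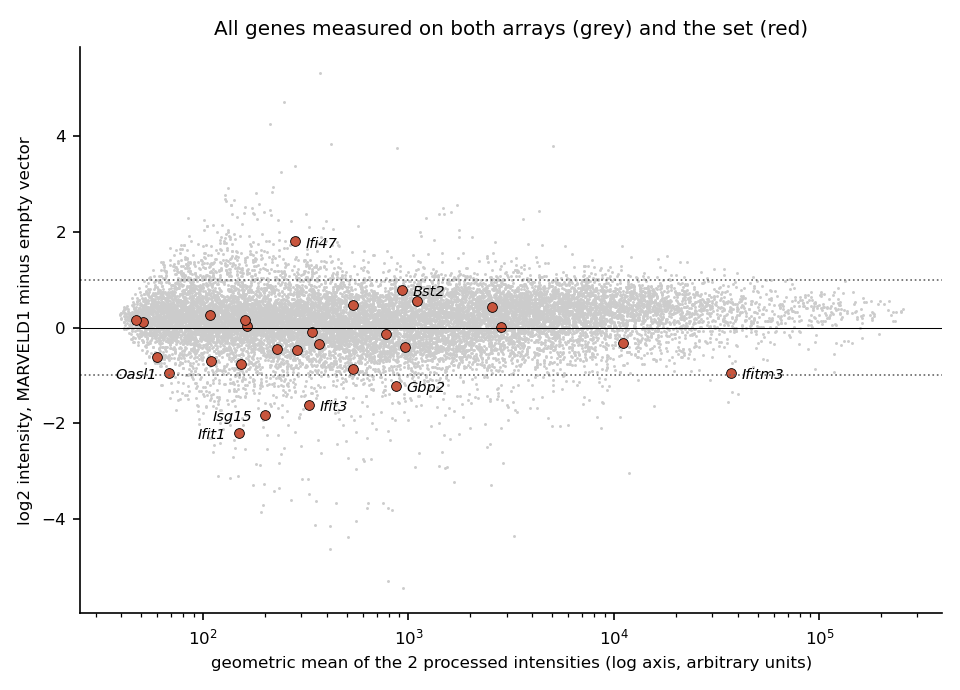
Log2 intensity difference, MARVELD1 minus empty vector, against the geometric mean of both processed intensities (log axis) for the genes measured on both arrays, with the set in red and dotted lines at 2-fold. Ifit1, Isg15, Ifit3 and Gbp2 lie under the lower line and Ifi47 over the upper one, while Ifitm3, the brightest of the set, lies just inside.

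The members were also grouped by brightness. Of the 19 members with a mean intensity from 100 to 1000, 4 passed 2-fold on the lower side and 1 on the higher, the median being -0.40, where the median of the 7201 genes in that range was 0.10 and 4.64% were at least 2-fold lower. Of the 5 members above 1000, 0 were past 2-fold in either direction, where 1.97% of the 6938 genes in that range were at least 2-fold lower. Of the 8 under 100, 1 was at least 2-fold lower, where 4.10% of 3293 genes were.

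Further probes of a gene gave a measure of position within the transcript. In 4644 genes with a pair of measured probes that lay at least 500 bases from each other, the log2 difference at the most 5′ probe minus that at the most 3′ probe had a median of -0.28. Among the members with such a pair it was -0.49 for Irf1, -0.43 for Isg20, -0.69 for Oas3, -0.38 for Rsad2 and 0.08 for Trim25. The 5 genes at least 2-fold lower have 1 probe each, so this could not be examined in them. With the most 3′ probe of every gene the counts were again 5 lower and 1 higher (3.67% and 5.97% of all genes), and the median was -0.27. Ifi47, the gene at least 2-fold higher, also has 1 probe, so this choice could not take any of these genes out of the counts.

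The promoter windows of the set were set beside the readings. Of the 36 members 29 had a window in the RefSeq table, which runs from 250 bases before to 50 after the start site. A gene was counted as holding a motif if any of its windows held it. The members were chosen by name as interferon-induced genes, so a larger share with these motifs was built into the choice. It says nothing about the arrays. The ISRE core occurred in 16 of these 29 genes, or 55.2%, and in 3.99% of all 27025 genes with a window. The GAS motif TTCNNNGAA, whose letters read the same on both strands, occurred in 9 of the 29, or 31.0%, against 9.55% of all genes; in Bst2 and Ifitm3 a GAS match overlaps an ISRE match. All 5 members at least 2-fold lower were among the 16 with an ISRE core. Those 16, all detected, had a median log2 difference of -0.73, with 11 lower and a range from -2.19 to 0.79. The 10 detected members whose window lacked the core had a median of -0.07, with 5 lower and a range from -0.94 to 1.79. By any amount 34.6% of all genes read lower. This is a description of 26 genes with no test, and the ranges overlap: Oas1a, Oas3, Rsad2, Eif2ak2 and Bst2 hold the core and did not read lower. The readings of genes outside the set that hold the core were not examined.

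**Figure D4:**
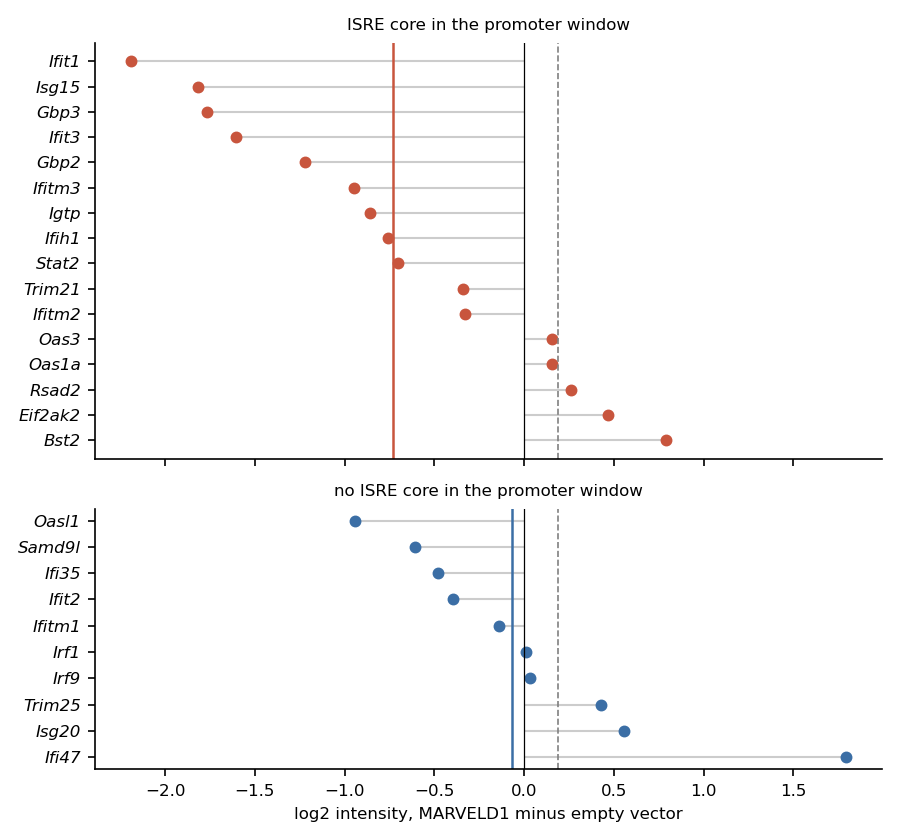
Log2 intensity difference, MARVELD1 minus empty vector, of detected members with (top) and without (bottom) an ISRE core in the promoter window. Solid vertical lines are the medians, -0.73 and -0.07, and the dashed line is the median of all genes, 0.19; the 5 members at least 2-fold lower are all in the top panel.

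The upstream part of the pathway was read from a list of 40 ligands, receptors, kinases, sensors and regulators, of which 36 were detected. Of these 1 was at least 2-fold lower and 1 higher (2.78% each, against 3.48% and 5.52% of all genes), with a median of 0.00, or -0.19 relative to all genes. Tlr3, an endosomal receptor for double-stranded RNA, read 109.3 and 44.6, a log2 difference of -1.17 with an error of 0.34. Socs3, a feedback inhibitor of cytokine receptors, read 7443.0 and 14819, a difference of 1.12. Next to these stood Tlr4 at -0.64 and Jak1 at -0.62, and on the higher side the DNA sensor Cgas at 0.79 and the RNA editing enzyme Adar at 0.72. The following components were picked after their values had been seen. The receptor subunit Ifnar1 read 1407.7 and 924.8, a difference of -0.48, and Ifnar2 2864.8 and 2618.0, a difference of 0.00. The kinase Tyk2 read 284.3 and 171.1, a difference of -0.61. Ifnb1, the type I interferon that fibroblasts make, stayed dim on both, at 9.54 and 11.1.

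A second list held 52 further interferon-induced genes, which were not chosen by the rule. This list, like the members, was drawn up with earlier results of these data known, so it is not an independent check. Of 38 detected, 2 were at least 2-fold lower and 2 higher (5.26% each, against 3.48% and 5.52% of all genes). By any amount 25 read lower (65.8%, against 34.6% of all genes), and the median was -0.14, or -0.33 relative to all genes. The gene named Ifi27 in the files, which RefSeq calls Ifi27l2a by its accession, read 6471.4 ± 647.2 and 1750.5 ± 175.3, a log2 difference of -1.76 and thus 3.38-fold lower. Sp110, a nuclear body protein gene, read 268.6 and 113.5, a difference of -1.12. Oas1c, a paralog of Oas1a, stood at -0.98. On the higher side, the Schlafen family gene Slfn2 read 112.8 and 235.3, a difference of 1.19, the chemokine gene Cxcl9 66.7 and 122.5, or 2.01-fold higher, and the immunity-related GTPase gene Tgtp1 69.6 and 108.5, a difference of 0.77. The counts past 2-fold depend on scaling: scaled to the array median, 4 were lower and 1 higher, where 4.31% and 4.06% of all genes were, and the counts were the same with quantile normalization, loess and the authors' deposited table.

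**Figure D5:**
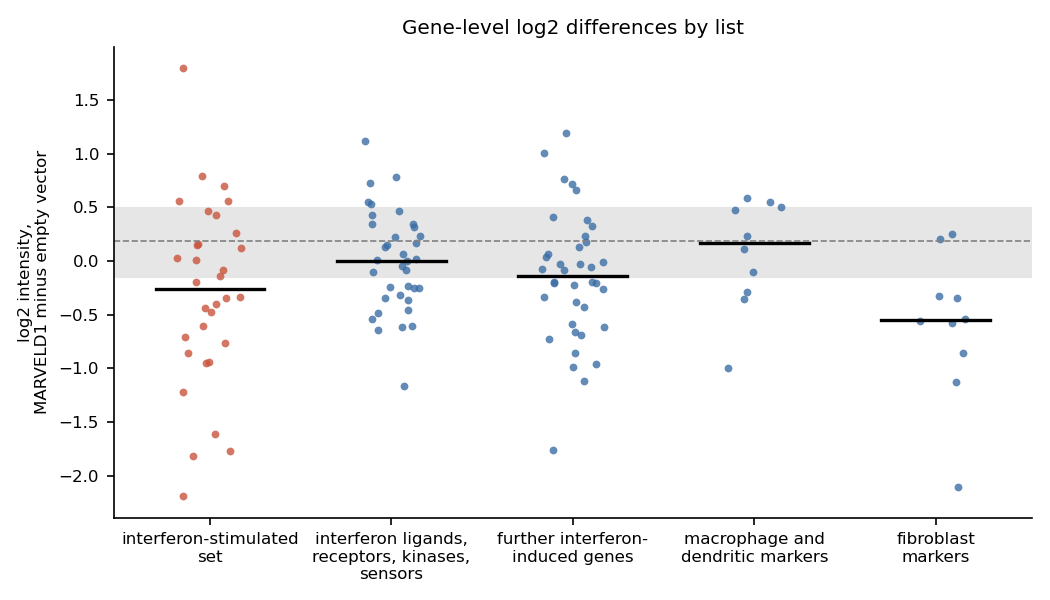
Gene-level log2 intensity difference, MARVELD1 minus empty vector, for the 32 detected members and for 4 other lists; each point is a gene, bars are medians, the grey band is the interquartile range of all genes and the dashed line their median, 0.19. The medians are -0.26 for the set, 0.00 for the pathway list, -0.14 for further interferon-induced genes, 0.17 for macrophage and dendritic cell markers and -0.55 for fibroblast markers.

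Fibroblast markers also read lower on the array labelled MARVELD1, with 8 of 10 lower by any amount (34.6% of all genes), 2 at least 2-fold lower (3.48% of all genes) and a median of -0.55. Pdgfrb, a growth factor receptor of mesenchymal cells, stood at -2.10, Fn1 at -1.12 and Col1a2 at -0.86, while S100a4 stood at 0.25. The other marker lists, lymphocyte and endothelial, had 0 members past 2-fold, with medians of 0.32 and 0.31, and of 5 detected epithelial markers 1 was lower and 2 higher. The part of cell state or cell type in the readings of the interferon-stimulated genes was not tested, and fewer cells of a type and less RNA per cell cannot be told apart.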

How the data were processed

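Spot intensity in the deposited scanner files came from Agilent Feature Extraction 9.5.3.1; per the file headers, spatial and multiplicative detrending and surrogates for very low readings were switched on. A second deposited table, of normalized intensity on a linear scale, covers 26851 probes; its column medians are 3.11 and 2.94, and its values equal the processed intensity divided by 124.6 and 123.3, within 1% for 99.7% and 99.8% of probes. The choice of factors is not given in the sources used here. Coordinates are those of the files (mm9), without an annotation of that build, so exon or UTR is not stated. Probes are 60 bases long.

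Control spots and outlier spots (116 and 223 of 43379) were left out; 0 were saturated. The log2 processed intensity minus the array's 75th percentile was used. A gene, by the GeneName column, was given by its brightest probe among those well above background on at least 1 array. Where 1 array was dim, the bound sets the bright array against the higher of the dim value and the lowest probe mean called well above background (36.5 and 35.95); such a mean, over repeated spots, can include spots that were not. With 1 array per group, precision is limited by that number. The scripts were tested on simulated data. Python 3.11.15, R 4.3.3 and limma 3.58.1 (normexp) were used.

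All members are named; from other lists, the 3 largest differences each way measured on both arrays and any other past 2-fold were eligible, and those described are a selection; a few markers and pathway components were added after their values had been seen. Older names were tried for the lists. The members and lists were chosen with earlier results of these data known. Alternatives were scaling to the median, quantile normalization, loess, normexp with offset 50, the filter on dim probes, the mean of probes, the most 3′ probe, RefSeq names, the authors' table, limits of 1.5-fold and 3-fold and, added after seeing the data, a floor at the dimmest single spot well above background (36.6 and 38.1). Promoters are from RefSeq, build GRCm38.p6.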

Additional observations from a re-analysis of the deposited data

How the results depend on the processing

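No paired analysis was possible because each group has 1 array. Under the 11 alternatives to scaling, filter, floor, probe choice, naming and source, the count of members at least 2-fold lower lay between 4 and 7. The share of all genes at least 2-fold lower lay between 2.5% and 4.61%. Ifit1, Isg15, Ifit3 and Gbp2 were among the members at least 2-fold lower each time. Gbp3 was too, except in the 2 settings where it has no value, the filter on both arrays and the authors' table. The members' median moved to -0.37 with scaling to the array median, -0.37 with quantile normalization, -0.40 after loess and -0.45 in the authors' deposited table. Relative to all genes it stayed between -0.52 and -0.42, except with normexp, at -0.28. The cause was not tested. Without the filter on dim probes 2 members were at least 2-fold higher, where 6.81% of all genes were. At 1.5-fold 11 members were lower and 3 higher, where 8.95% and 19.5% of all genes were.

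Of the pathway list, 0 were lower and 0 higher with normexp and at 3-fold, 0 higher with quantile normalization and after loess, 2 higher with 3′ probes, and 4 lower and 3 higher at 1.5-fold. Of the further interferon-induced genes, 4 were lower and 1 higher with scaling to the median, quantile normalization, loess and the authors' deposited table. In those settings 3.87% to 4.61% of all genes were lower and 3.15% to 4.15% higher. With normexp 1 was lower and 0 higher, with RefSeq names 1 lower, at 1.5-fold 10 lower and 5 higher, and at 3-fold 1 lower and 0 higher. Of all genes, 2.5% were lower and 1.89% higher with normexp, 8.95% and 19.5% at 1.5-fold, and 1.29% and 1.23% at 3-fold. With RefSeq names 3.53% of all genes were lower, and with 3′ probes 5.97% were higher. With the floor at the dimmest single spot, an alternative chosen after seeing the data, 5 members were lower and 1 higher. Of all genes 3.46% were lower and 5.51% higher there. In 328 of 344 comparisons a single member's value moved by less than its own error, and in 16 by more. That count was largely fixed in advance and is no measure of robustness. Scaling to the array median shifts every member by the same small amount, and the authors' table does likewise. Settings of probe choice, naming, filter or floor cannot change a member with 1 probe that is well above background on both arrays. Of the members past 2-fold, 0 changed sign. Dim signal limits Usp18, Oas1a, Oas2, Mx1, Mx2 and the 4 undetected members, and cultures were not replicated.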
